A study of Mus musculus with 12 samples.

Results

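The untreated mouse heart was described from the 3 libraries of water-treated animals, Control_1365, Control_1366 and Control_1367, out of 12 heart libraries in the series. All 12 came from hearts of female FVB mice, an inbred laboratory strain, and no genetic modification is named for any group. The other 9 libraries came from mice treated for 14 days with 1 of 3 kinase inhibitors, 3 libraries each, and serve here only to set the control values beside them. The daily dose was 40 mg/kg of sunitinib, 30 mg/kg of sorafenib and 50 mg/kg of erlotinib. The labels give no age and do not say whether a library is 1 animal or a pool, so the spread between libraries may be partly technical. The 3 control libraries were taken by their labels, and no expression value entered the choice. Levels of different genes are compared as TPM, the share of transcripts after division by transcript length, and values of 1 gene in different libraries as CPM, the share of counts, scaled by the trimmed mean of M values over all 12 libraries.

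The ventricle wall is made of cardiomyocytes, whose sarcomeres slide thick myosin filaments along thin actin filaments. Calcium released from the sarcoplasmic reticulum through ryanodine receptors binds troponin C and starts each beat, and the SERCA pump returns the calcium to the store. The adult heart draws most of its ATP from mitochondrial oxidation of fatty acids. In rodents the adult ventricle uses the fast alpha myosin heavy chain, whereas the slower beta chain is the fetal form.

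The control libraries held 14371312, 14304542 and 16047072 counts in 21705 listed genes. Of these genes, 11111 had at least 1 TPM in every control library and 5027 had no count in any. TPM is scaled to a fixed total, and the listed genes held 58.3%, 55.7% and 58.5% of it. Across the 11111 genes the rank correlation of TPM between control libraries was 0.981 to 0.988, a description across genes of libraries that share their tissue. No pair of control libraries agreed within counting noise, so each was counted as 1 sample. Every control library stood apart from the other two in some group of genes. Control_1367 carried mRNAs of liver proteins. Control_1366 had high glucocorticoid targets and low interferon and antigen presentation genes, most of which were highest in Control_1365. Immediate early genes were on average low in Control_1365. The values are given further on, and the count of varying genes is given without each library.

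Transcripts of the contractile apparatus and of respiration headed the list. A total of 186 genes made up 50% of the listed TPM, 71 genes had at least 1000 TPM and 781 at least 100 TPM. The most abundant gene held 3.15% ± 0.140 (SD, n = 3) of the listed TPM, the 10 most abundant 16.8% ± 0.166 and the 30 most abundant 26.8% ± 0.406. Of the 30, 10 stood on the sarcomere list, among them the small heat shock protein gene Cryab. Another 11 were nuclear genes for subunits of oxidative phosphorylation, the chain that couples oxygen use to ATP synthesis. The edge of the 30 was narrow, since Aldoa, the last inside, had 1878 TPM and Cox5a, the first outside, 1864 TPM.

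Myl2, the ventricular regulatory myosin light chain, was the most abundant gene at 18829, 18017 and 17482 TPM in Control_1365, Control_1366 and Control_1367. Mb, which encodes the oxygen store myoglobin, followed at 17233, 16494 and 16872 TPM. The ranges of the Myl2 and Mb levels did not overlap. Myh6, the alpha myosin heavy chain, had 12651, 10901 and 12590 TPM, and Actc1, cardiac alpha actin, had 9421, 8136 and 9966 TPM. Both were lowest in Control_1366, the library with the lowest listed TPM in sum. The regulators of the thin filament were also among the leading genes. Tpm1, the tropomyosin that lies along actin, had 8845 ± 441 TPM (SD, n = 3), the troponin T gene Tnnt2 7653 ± 310, the troponin I gene Tnni3 6867 ± 43.0, and the troponin C gene Tnnc1 4872 ± 91.1. Neighbouring Tnnt2 and Tnni3 did not overlap, with Tnni3 between 6818 and 6896 TPM and Tnnt2 between 7336 and 7955. Myl3, the ventricular essential light chain, had 6365 ± 220 TPM.

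Other leading genes served calcium return, fuel use, protein protection and iron storage. Pln, whose product phospholamban restrains the SERCA pump, had 4431, 4072 and 4231 TPM, and Atp2a2, the pump itself, 3799, 3272 and 3815 TPM. The mRNA level of the inhibitor lay above that of the pump in every control library. Slc25a4, the mitochondrial ADP/ATP carrier of muscle, had 5770 ± 171 TPM, and Fabp3, the heart fatty acid binding protein, 5093 ± 471. The respiratory genes among the 30 ran from Atp5b, a catalytic subunit of ATP synthase, at 3455 ± 93.3 TPM, to Uqcrq, a subunit of complex III, at 1885 ± 75.3. Cryab, a small heat shock protein that guards desmin and titin, had 3109 ± 186 TPM, Ckmt2, the mitochondrial creatine kinase of muscle, 2087 ± 105, and Fth1, the iron-storing ferritin heavy chain, 1890 ± 76.3. Tcap, the telethonin that caps titin at the Z-disc, varied most of the 30, with 2748, 2365 and 1910 TPM.

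**Figure D1:**
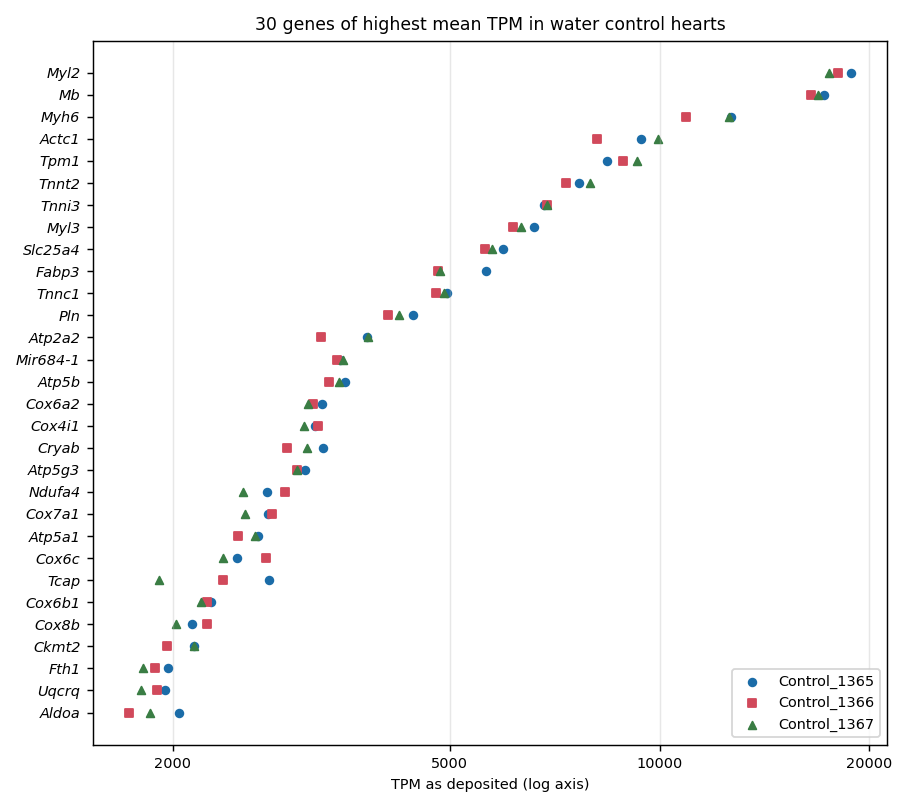
TPM as deposited (log axis) of the 30 genes of highest mean TPM in the control hearts, with 1 symbol for each of the 3 control libraries. The 3 symbols of most genes lie close together, and those of Tcap, from 1910 to 2748 TPM, are the widest apart.

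Length bears on these levels at 2 places. Mir684-1, a microRNA gene, was listed at 3478 ± 29.9 TPM, but this rested on 516, 548 and 567 counts over an effective length of 10 bases, and by counts it ranked 4690. Myh6 had an RSEM effective length of 2252, 2259 and 2343 bases in the 3 libraries, against 5928, 5928 and 5916 for Myh7, the beta heavy chain. By counts alone Myh6 was the most abundant gene of the heart, at 422789, 391594 and 476648 counts, followed by Atp2a2 and Mb. Ranked by counts instead of TPM, 18 of the 30 genes stayed among the 30, and 451 genes were needed for 50% of all counts.

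Promoter sequence was available from RefSeq (GRCm38.p6) for 21 of the 30 genes, as 300 bases from 250 before to 50 after each annotated start. The letters TATAAA, searched on the strand of the gene, occurred in 4 of the 21. They occurred in 8.32% of the 32851 RefSeq promoter entries and in at least 1 entry of 5.51% of 10057 genes with a mean of 1 CPM or more. The 30 bases around the match are shown for these 4 because they include the genes of the motor protein, the actin and the pump inhibitor described above. Capitals mark the searched letters.
Myh6, chr14:54966589-54966618, minus strand: tatgggatgggaTATAAAggggctggagca
Actc1, chr2:114052826-114052855, minus strand: tccatcagagagcTATAAAgctgcgctcca
Pln, chr10:53337455-53337484, plus strand: aaagctacctacTATAAAgcagtatcttca
Cox8b, chr7:140900425-140900454, minus strand: ctccaccccagcTATAAAaagccccagctg
Counted from the annotated start as base 1, the first T lay at 2 for Myh6, 34 for Actc1 and 5 for Cox8b, and at -219 for Pln. A match describes these letters only.

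Summed over gene lists, sarcomere genes held 15.8% ± 0.214 of the listed TPM in control. This list of 36 genes, 34 of them at 1 TPM or more in every library, includes Cryab. Nuclear-encoded oxidative phosphorylation genes held 14.7% ± 0.657 of the listed TPM (86 genes, 84 at 1 TPM or more). The median gene of the respiratory list had 711 TPM, beside 10.1 TPM for all genes at 1 TPM or more. Genes of high-energy phosphate and oxygen handling, a list led by Mb, held 5.19% ± 0.0569 (11 genes), cytosolic ribosomal proteins 4.01% ± 0.287 (84 genes) and fatty acid use 3.21% ± 0.201 (35 genes). The citric acid cycle held 2.58% ± 0.0233 (25 genes), calcium and ion handling 2.28% ± 0.0618 (32 genes) and glycolysis 1.56% ± 0.0441 (20 genes). Some genes stand on more than 1 list, so the shares do not add up. Among fuels, Fabp3, the lipase gene Lpl at 1698 ± 119 TPM and the dienoyl-CoA isomerase gene Ech1 at 1204 ± 93.5 TPM led the fatty acid list. Aldoa, Gapdh at 1751 ± 92.9 TPM and Ldhb at 1146 ± 43.0 TPM led glycolysis. The fatty acid sum was above the glycolysis sum in every control library, at 19930, 17718 and 17667 TPM against 9305, 8416 and 9168 TPM.

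In most gene families 1 member carried more of the transcript than all the others together. Of 59 families with 232 members, 164 members reached 1 TPM in every control library and 12 had no count in any. The leading member held a median of 86.7% of its family's TPM, more than 90% in 24 families and less than 60% in 15. The same member led in all 3 control libraries in 55 families, and in all 12 libraries of the series in 51.

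The contractile families were among the most uneven. Myh6 held 95.0% ± 0.211 of the sarcomeric myosin heavy chain TPM and Myh7 4.61% ± 0.243, whereas Myh2 and Myh3, the skeletal IIa and embryonic chains, had no count. Because of the lengths given above, the Myh6 share by counts was 88.3% ± 0.730. Tnni3, Tnnc1 and Myoz2, which encodes the calsarcin of heart and slow muscle, each rounded to 100% of their families. Tnnt2 held 99.8% of the troponin T family, Tpm1 98.9% of the tropomyosins and Mybpc3, the cardiac myosin-binding protein C, 98.6%. Actc1 held 97.0%, 96.8% and 95.5% of the muscle actins in Control_1365, Control_1366 and Control_1367. Acta1, the skeletal actin that the fetal heart also uses, came second at 218 ± 58.7 TPM.

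Calcium handling showed the same concentration. Atp2a2 held 99.9% of the SERCA pumps, Slc8a1, which expels calcium in exchange for sodium, 99.7% of its family, and Ryr2, the release channel of the heart, 99.4% of the ryanodine receptors. Pln held 98.2%, 97.8% and 99.2% of the SERCA inhibitor pair, with Sln, the inhibitor typical of atria, at 81.5, 91.3 and 34.8 TPM. Casq2, the cardiac calcium buffer of the store, held 85.9% ± 0.506, and Casq1 52.9 ± 4.80 TPM. Membrane channels and receptors were far less abundant. Cacna1c, the L-type calcium channel pore, had 42.8 ± 6.85 TPM and 81.5% ± 3.49 of its 10-member family. Gja1, connexin 43 of the intercalated disc, had 171 ± 47.8 TPM and 83.1% ± 5.45. Kcnj2 held 50.9% ± 1.21 of the Kir2 channels that set the resting potential, with Kcnj12 close behind at 13.2 TPM against 16.0 TPM. Hcn2, a pacemaker current channel, held 89.8%, and Hcn4, the channel typical of the sinus node, had 1.24 ± 0.187 TPM.

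In metabolism the muscle forms led. Cpt1b, which admits fatty acids to the mitochondrion in muscle, held 96.1% ± 0.129 of the carnitine palmitoyltransferase 1 family, Acsl1 93.8% of the acyl-CoA synthetases, Slc2a4, the insulin-responsive glucose transporter GLUT4, 89.3% ± 0.665 and Pfkm 86.8% of the phosphofructokinases. Ldhb, the lactate dehydrogenase subunit typical of oxidative tissue, held 72.5% ± 1.45 and Ldha 434 ± 26.0 TPM. Creatine kinase was shared by 2 forms, Ckmt2 at 2087 ± 105 and the cytosolic muscle form Ckm at 1838 ± 96.0 TPM. The heart and muscle isoforms of cytochrome oxidase led theirs, with Cox6a2 at 93.1% ± 0.781, Cox8b at 86.7% ± 1.89 and Cox7a1 at 77.4% ± 0.816, though Cox7a1 held 59.5% by counts, since its effective length is 291 bases and that of Cox7a2 679.

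Several families of regulators were shared more evenly. Gata4 held 48.7% ± 4.84 of the GATA factors, with Gata6 at 25.7 ± 2.28 TPM beside 32.5 ± 3.87 for Gata4. Tbx20 held 53.1% ± 5.14 of the cardiac T-box factors, while Hand2 was the only counted Hand factor and Hand1 had no count. Ppard held 42.4% ± 0.310 of the PPAR receptors by TPM, but by counts Ppara led. The leader by counts differed from that by TPM in 5 families in all, which also included non-sarcomeric myosin (Myh9 for Myh14), small heat shock proteins (Hspb7 for Cryab) and MEF2 factors (Mef2d for Mef2a).

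No single leader held in 4 families. Nppa and Nppb, the atrial and brain natriuretic peptides, had 179 and 160 TPM in Control_1365, 340 and 259 in Control_1366 and 223 and 248 in Control_1367. Pdk4, a fasting- and glucocorticoid-responsive kinase that shuts pyruvate out of oxidation, had 338, 697 and 229 TPM, whereas its relative Pdk2 stayed at 261, 227 and 252 TPM. Pdk4 led in Control_1365 and Control_1366 only. Ucp3 exceeded Ucp2 in Control_1365, at 36.7 against 23.7 TPM, and lay below it in Control_1367, at 13.9 against 28.2 TPM. Mef2a and Mef2d, MADS-box factors of muscle genes, were close together, at 40.5 ± 3.39 and 37.9 ± 4.86 TPM.

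**Figure D2:**
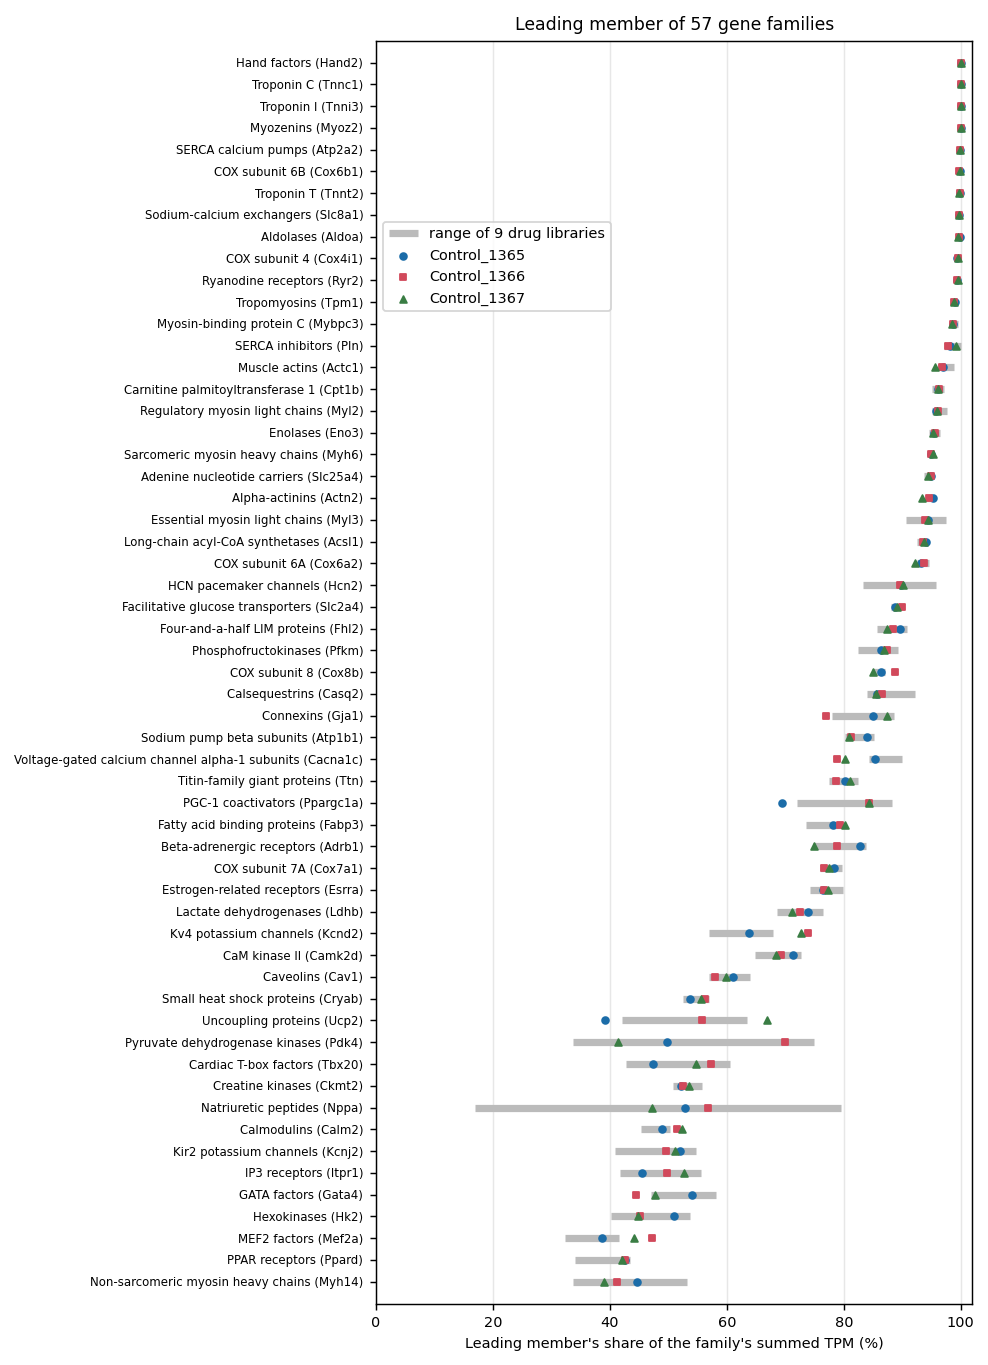
Share of the leading member (named in brackets) in the summed TPM of each of 57 of the 59 families, in percent, with 1 symbol for each control library and a grey bar over the range of the 9 drug libraries. The contractile and calcium families at the top lie near 100%, the control libraries of the pyruvate dehydrogenase kinases lie between 41.4% and 70.0%, and the natriuretic peptide bar runs from 16.9% to 79.6%.

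The leading members' shares in control were compared with those under treatment. In exact two-sided permutation tests over all 220 splits of 3 control against 9 drug libraries, 6 of 59 families had an unadjusted p under 0.05 (among them those of Calm2, Cox6b1, Cacna1c, Ppard and Kcnd2) and 0 had an adjusted p under 0.05, the smallest being 0.447. The smallest unadjusted p this design allows is 0.00909, so a single family could not pass the adjustment over 59, and the count of 0 does not show that shares were alike. The share of Cacna1c was 85.4%, 78.8% and 80.3% in control against 84.3% to 89.9% in the drug libraries, so the groups overlapped in Control_1365. The share of Calm2 was 49.0%, 51.6% and 52.3% in control and 45.3% to 50.3% in the drug libraries, overlapping in the same library.

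Markers of ventricular and atrial cardiomyocytes, vessels and connective tissue were all present. All 14 markers on the ventricular cardiomyocyte list, 13 of which stand on other lists too and many of which atria share, were at 1 TPM or more in every control library, with a median of 5619 TPM. Irx4, a ventricular transcription factor and the 1 marker on no other list used here, had 11.6 ± 2.84 TPM. Of 10 atrial markers 9 were at 1 TPM or more. Myl7, the atrial regulatory light chain, had 150, 131 and 99.4 TPM, Myl4, the atrial essential light chain, 156, 169 and 107 TPM, and Nppa the values above. All 3 control libraries held atrial transcripts, with Myl7 and Myl4 lowest in Control_1367. As CPM, Myl7 lay between 49.3 and 78.7 in control and between 0 and 173 in the 9 drug libraries. The median SD of the atrial markers was 0.435 on the log2 scale in control and 1.59 within the drug groups. Conduction markers were low, 3 of 7 reaching 1 TPM, led by Cacna1g at 6.56 ± 1.41 TPM.

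Endothelial markers came next. All 17 reached 1 TPM, with a median of 45.4 TPM. Fabp4, which capillary endothelium and fat cells use to carry fatty acids, had 1542, 1221 and 1148 TPM, and Cd36, a fatty acid importer that cardiomyocytes share, 868, 768 and 729. The endothelial adhesion molecule genes Pecam1 and Cdh5 had 68.0 ± 12.8 and 42.4 ± 4.12 TPM. Fibroblast markers were of like abundance, with all 14 at 1 TPM or more and a median of 45.1 TPM, led by Gsn at 997 ± 124, Mgp at 943 ± 199 and Dcn at 546 ± 53.2 TPM. The collagen gene Col1a1 had only 15.4, 16.2 and 29.3 TPM. Pericyte markers had a median of 12.3 TPM, led by Rgs5 at 72.5 ± 4.38. Smooth muscle markers without Pln summed to 167, 202 and 321 TPM and were highest in Control_1367. In such bulk tissue, fewer cells of a type and less RNA per cell cannot be told apart.

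Of the blood and immune lists, macrophage markers were the clearest. Among 15 such markers 13 reached 1 TPM in every library, led by Lyz2 at 152 ± 10.9 TPM and the complement gene C1qa at 66.3 ± 4.75 TPM, with Csf1r, the receptor for their growth factor, at 10.9 ± 0.929. Their sum was 377, 403 and 431 TPM. Erythroid transcripts were Hba-a2 at 1566, 2088 and 1738 TPM and Hbb-b1 at 165, 139 and 184 TPM, genes with near-identical copies whose reads the counting can split. None of the 9 T and NK cell markers or the 6 B and plasma cell markers reached 1 TPM in every library. Their sums were 2.33 ± 1.44 and 0.830 ± 0.599 TPM, both highest in Control_1365. Of mast cell markers the receptor gene Kit was highest at 0.827 ± 0.200 TPM.

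Markers of neighbouring tissues were mostly low. Of the 7 lung markers Sftpa1, Sftpd, Scgb1a1 and Cldn18 had no count in any control library and the sum of the list was at most 0.340 TPM. Of the thymus markers Rag1, Rag2, Foxn1 and Psmb11 had no count. Ucp1 and Zic1 of brown fat, Myh2 of skeletal muscle, and Th, Chat and Snap25 of neurons were also without a count. Other members of these lists were present: the brown fat list summed to 57.4 ± 15.7 TPM, led by Ppargc1a, which cardiomyocytes share, and the neuronal list to 15.2 ± 1.76 TPM with 2 of 8 markers at 1 TPM or more, led by Uchl1. Of 15 skeletal muscle markers 4 reached 1 TPM in every library, and those on no other list summed to 14.7 ± 1.59 TPM. Of 9 white fat markers 7 reached 1 TPM, among them Lpl and Fabp4, and those on no other list summed to 31.0, 20.7 and 35.7 TPM. In the smallest control library, Control_1366, 0 counts allow up to 3 counts, or 0.212 CPM. The liver list differed between the libraries, and 2 of its 10 markers reached 1 TPM in all 3. Its markers summed to 9.90, 27.3 and 93.0 TPM in Control_1365, Control_1366 and Control_1367.

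**Figure D3:**
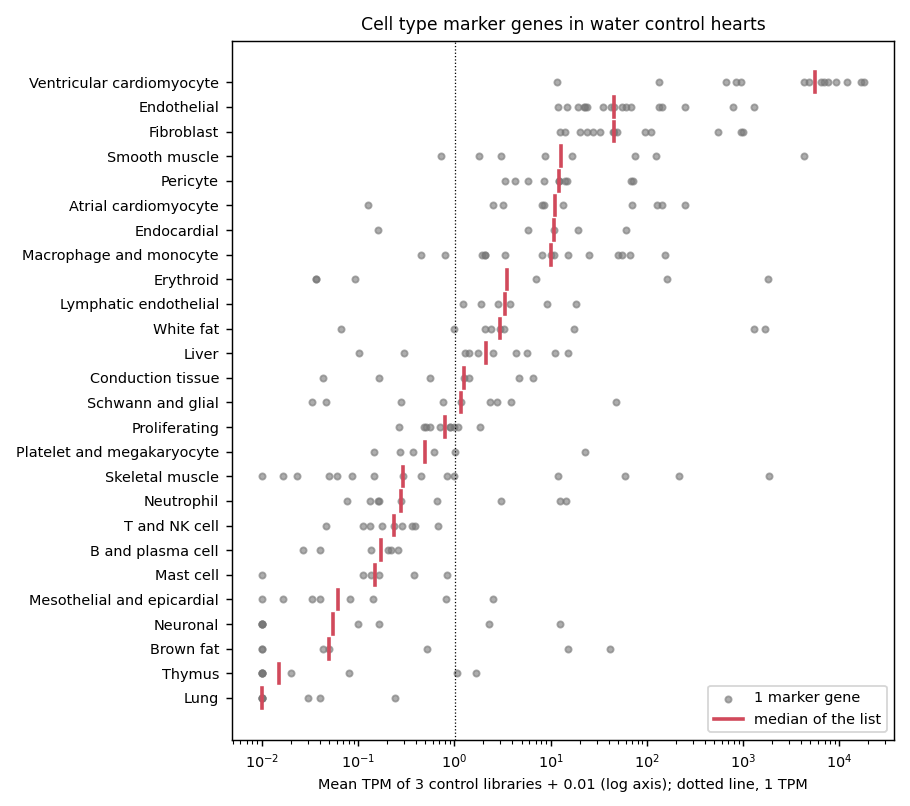
Mean TPM over the 3 control libraries, plus 0.01 and on a log axis, of each marker gene (grey points) of 26 cell type lists, with the list's median as a red bar. The ventricular list has a median of 5619 TPM, the endothelial and fibroblast lists lie near 45 TPM, and the lung list lies at 0.

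Most genes differed little between the 3 control libraries. The SD of log2(CPM + 0.5) had a median of 0.129 over 12714 genes with a mean of at least 1 CPM, beside 0.137 within the 3 drug groups. A chi-square test of the 3 counts of each gene against counting error alone called 5216 of 13157 genes at an adjusted p under 0.05 (39.6%), a comparison of these 3 libraries and of no condition. The highest library was at least 2 times the lowest, on CPM + 0.5, in 534 of 12714 genes (4.2%). This share was 9.16% of genes with a mean of 1 to 10 CPM, 2.33% of those from 10 to 100 CPM and 1.17% of those at 100 CPM or more. Of the 30 most abundant genes, 29 were called beyond counting error and 0 reached 2-fold. Of the 59 family leaders 53 were called and 3 reached 2-fold.

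The count of 534 changed with each library. Without Control_1365 it was 191, without Control_1366 258 and without Control_1367 342. In 247 of the 534 genes the farthest library was Control_1365, in 192 Control_1366 and in 95 Control_1367. When the farthest library was Control_1367 it lay above the others in 73 genes and below in 22, whereas Control_1365 lay below in 160 of its 247. Scaling bears on small shifts: TPM moved the median gene by -0.11 on the log2 scale in Control_1366 and by 0.09 in Control_1367 relative to the control mean, and the scaled CPM by at most 0.0054 in any of the 3. Thus 80 of 84 respiratory genes and 81 of 82 ribosomal protein genes were highest in Control_1366 by scaled CPM, but 39 and 69 by TPM.

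**Figure D4:**
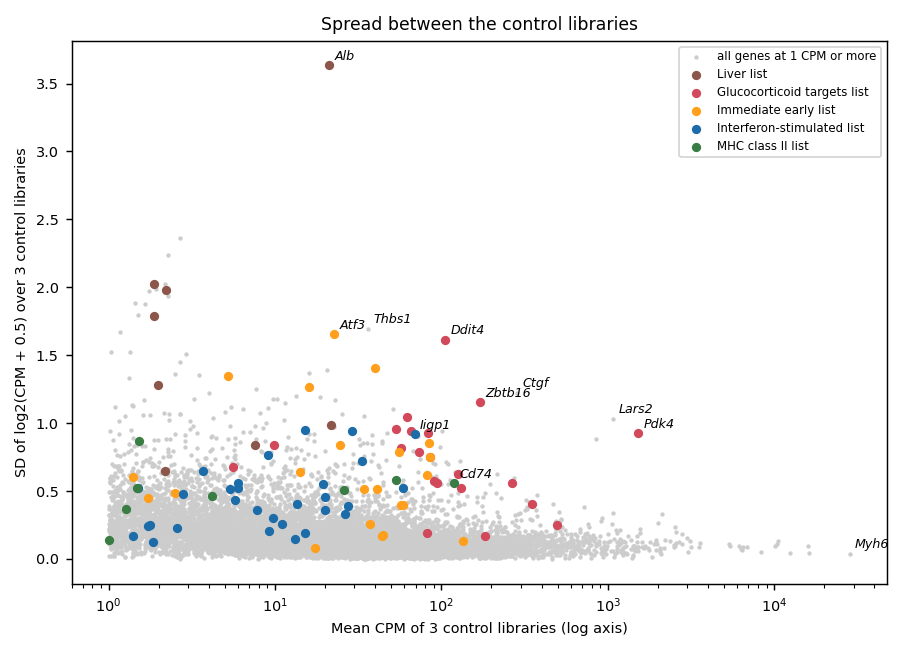
SD of log2(CPM + 0.5) over the 3 control libraries against mean CPM (log axis) for 12714 genes in grey, with 5 gene lists in colour. Alb stands highest at an SD of 3.63, the immediate early gene Atf3 lies at 1.65 and the glucocorticoid target Ddit4 at 1.61.

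Transcripts of secreted liver proteins were concentrated in Control_1367. Alb, serum albumin, had 0.0689, 0.777 and 62.7 CPM in Control_1365, Control_1366 and Control_1367, the largest SD among genes that are not predicted models. Apoa1, the main protein of high density lipoprotein, had 0.0689, 0.212 and 6.32 CPM. The fibrinogen gene Fga had 0, 0.141 and 5.61 CPM, and Gc, the vitamin D carrier, 0, 0 and 4.30 CPM. Mup10, a major urinary protein gene with near-identical copies, had 0, 0 and 8.06 CPM, at least 38.0-fold higher in Control_1367 than the 3 counts per library that a 0 allows. All 8 liver markers with a mean of 1 CPM or more reached 2-fold, and 7 of them were highest in Control_1367. The eighth, Ahsg, had 8.40, 30.4 and 26.6 CPM. Of all genes, 4.2% reached 2-fold and 31.7% were highest in Control_1367. Alb, Apoa1, Apoa2, Fgb and Ttr of this list passed the filter of 1 CPM only through Control_1367, as did Fga, Gc and Mup10. The counts of liver markers therefore follow in part from that filter. In the drug groups Alb ran from 0 to 5.89 CPM, below Control_1367 in all 9 libraries.

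Connective tissue and smooth muscle genes were also highest in Control_1367. Of 36 extracellular matrix genes 27 were highest there by scaled CPM, beside 31.7% of all genes. By TPM, which shifts the median gene upward there as given above, 33 were highest there. Of the 36, 6 reached 2-fold, beside 4.2% of all genes, 4 of them highest in Control_1367 and 2 in Control_1366. The elastin gene Eln had 16.8, 34.5 and 46.2 CPM and Postn, a matrix protein of activated fibroblasts, 40.0, 73.1 and 111 CPM. Of 8 smooth muscle markers 7 were highest in Control_1367, among them the actin gene Acta2 at 131, 206 and 313 CPM. Eln, Postn and Acta2 were lowest in Control_1365. Vwf, the von Willebrand factor of larger vessels and endocardium, ran the same way at 46.7, 108 and 141 CPM. Whether the liver transcripts and these genes share a source was not tested.

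Most glucocorticoid targets were highest in Control_1366. Of 21 glucocorticoid targets with a mean of 1 CPM or more, 17 reached 2-fold and 19 were highest in Control_1366 (18 by TPM). Of all genes at that mean, 4.2% reached 2-fold and 33.1% were highest in Control_1366. Ddit4, an inhibitor of mTOR signalling, had 22.7, 216 and 77.8 CPM in Control_1365, Control_1366 and Control_1367. Nfkbia, the inhibitor of NF-kB, had 26.0, 112 and 48.7 CPM and Pdk4 1165, 2644 and 747 CPM. Zbtb16 differed, with 56.7, 205 and 250 CPM. Immediate early genes, which respond to stimuli within minutes, split between the libraries: 13 of 22 reached 2-fold, 11 of these lowest in Control_1365, 7 highest in Control_1366 and 5 in Control_1367. Atf3, a stress transcription factor, had 4.48, 48.7 and 15.2 CPM and Nr4a1, an orphan nuclear receptor, 10.3, 73.3 and 35.5 CPM, whereas Fos had 1.17, 4.17 and 10.3 CPM. Thbs1, a matrix protein of wounds, had 6.61, 72.4 and 29.8 CPM, and Ctgf, a matrix-associated growth regulator, 88.3, 412 and 357 CPM. Of 9 neutrophil markers 4 had a mean of 1 CPM or more. Of these 4, S100a9, S100a8 and Retnlg reached 2-fold and were highest in Control_1366, and 1 was highest in Control_1365. S100a9 had 5.85, 11.3 and 2.09 CPM.

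The levels in Control_1366 were set beside those under erlotinib. Ddit4 had 172, 236 and 306 CPM in the erlotinib libraries, from 18.8 to 58.5 CPM in the sunitinib libraries and from 36.7 to 44.5 CPM in the sorafenib libraries. Of the 161 genes that reached 2-fold and were highest in Control_1366, Control_1366 lay within the range of the 3 erlotinib libraries for 80, above it for 52 and below it for 29. Control_1365 lay below that range for 142 of the 161 and Control_1367 for 120, beside 3750 and 4021 of all 12714 genes. The 161 were chosen as highest in Control_1366, so low values in the other control libraries follow in part from that choice. Control_1366 lay above the sunitinib range for 131 of the 161 and above the sorafenib range for 143, beside 3561 and 3829 of all 12714 genes. These high positions of Control_1366 also follow in part from the choice of the 161. For all 12714 genes, Control_1366 lay within the erlotinib range for 5270, Control_1365 for 4847 and Control_1367 for 4580. Cd14, a receptor for bacterial lipopolysaccharide on myeloid cells, had 8.33, 43.9 and 16.7 CPM in control and 50.5, 53.0 and 77.0 CPM under erlotinib, all above Control_1366.

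Interferon and antigen presentation genes were lowest in Control_1366 and mostly highest in Control_1365. Of 30 interferon-stimulated genes with a mean of 1 CPM or more, 9 reached 2-fold, all 9 lowest in Control_1366 and 7 highest in Control_1365. Of 8 MHC class II genes 5 reached 2-fold (4 with another scaling, that of DESeq2), all 5 highest in Control_1365. Of all genes, 4.2% reached 2-fold and 35.3% were highest in Control_1365. Iigp1, an interferon-induced GTPase, had 121, 34.5 and 51.4 CPM in Control_1365, Control_1366 and Control_1367, and its relative Igtp 51.7, 14.1 and 21.5 CPM. Cd74, the invariant chain of MHC class II, had 156, 74.0 and 129 CPM and H2-Aa 72.7, 32.6 and 54.2 CPM. Single drug libraries went further. Igtp had 121 CPM in Sunitinib_1368 and 176 CPM in Erlotinib_1375, and from 8.11 to 12.3 CPM in the other 7 drug libraries.

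RefSeq promoters were at hand for 6 of these 9 interferon genes, and 5 held GAAA, 2 bases of any kind and GAAA again, on either strand, a core of the interferon response element that IRF and STAT complexes bind. So did 9 of the 15 other interferon genes of the list with a promoter, 3.44% of all promoter entries and 3.62% of genes with a mean of 1 CPM or more. The windows below are of the guanylate-binding and immunity-related GTPase genes and of Rsad2, an antiviral enzyme. Capitals mark the match, which reads TTTC, 2 bases and TTTC where it lies on the opposite strand.
Igtp, chr11:58199512-58199541, plus strand: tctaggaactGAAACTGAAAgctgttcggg
Gbp2, chr3:142620594-142620623, plus strand: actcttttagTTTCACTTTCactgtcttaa
Gbp3, chr3:142559989-142560018, plus strand: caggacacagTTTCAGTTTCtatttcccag
Rsad2, chr12:26456553-26456582, minus strand: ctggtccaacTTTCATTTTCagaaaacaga
Counted from the annotated start, the first base of the match lay at -34 in Igtp, -59 in Gbp2, -45 in Gbp3, which has a second, overlapping match at -39, and -120 in Rsad2. Gbp2 had 52.4, 19.1 and 28.1 CPM and Gbp3 27.1, 7.06 and 11.3 CPM, and Rsad2 13.1, 4.38 and 9.91 CPM. Genes of the list with and without a 2-fold spread both held the letters.

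A few genes stood alone in Control_1365. Lars2, a mitochondrial leucyl-tRNA synthetase, had 2041, 631 and 557 CPM, and Rmrp, the RNA of a ribonuclease complex, 5.99, 0.918 and 0.656 CPM. Of the drug libraries Sorafenib_1373 had the highest level of both, at 4369 and 10.7 CPM. Dbp, an output gene of the circadian clock, had 173, 69.8 and 76.3 CPM. Arntl, a core activator of the clock with opposite phase, was graded instead, with 3.99, 8.47 and 12.7 CPM. Of 19 clock genes 10 were highest in Control_1365 (beside 35.3% of all genes), 3 in Control_1366 and 6 in Control_1367. Among the 19, 4 reached 2-fold (21.1%, beside 4.2% of all genes), 3 of them highest in Control_1365 and 1, Arntl, in Control_1367. Of 35 fatty acid genes 27 were highest in Control_1365 by scaled CPM and 31 by TPM, beside 35.3% of all genes by scaled CPM. Of the 35, 4 reached 2-fold (11.4%, beside 4.2% of all genes). Of these 4, 2 were highest in Control_1365 and 2 in Control_1366, and all 4 were lowest in Control_1367. Ucp3, a mitochondrial carrier of muscle, had 89.6, 80.6 and 32.5 CPM, and Pdk4, given above, was highest in Control_1366. Snrpn, an imprinted gene, had 5.03, 0.565 and 4.83 CPM and was low in Control_1366 instead.

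The order of variability was shared in part with the drug groups, which the ranking did not use. Across genes, the control SD and the SD within drug groups had a rank correlation of 0.576, a description over 12714 genes. The 30 most variable genes had a median SD of 1.66 in control and 0.461 within drug groups, where all 30 lay above the median gene and 24 above the ninetieth percentile of 0.330. Genes of low level vary more, with a median control SD of 0.223 at 1 to 10 CPM and 0.0914 at 100 CPM or more. The genes were not matched by level, and how far the correlation and these positions follow from low counts was not tested. The edge of the 30 lay between Fmod, with an SD of 1.25, and Ctgf, with 1.22. At the other end, among genes with a mean of at least 100 CPM, the 10 most stable included Ptpn11, Dlst, Trip12, Zfp91, Hdlbp, Ppp2r1a, Pcbp2, Hnrnpk and Epn1. Ptpn11, a phosphatase of receptor signalling, had 464, 462 and 463 CPM. The median SD of the 10 was 0.00428 in control and 0.0616 within drug groups, beside 0.137 for all genes.

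**Figure D5:**
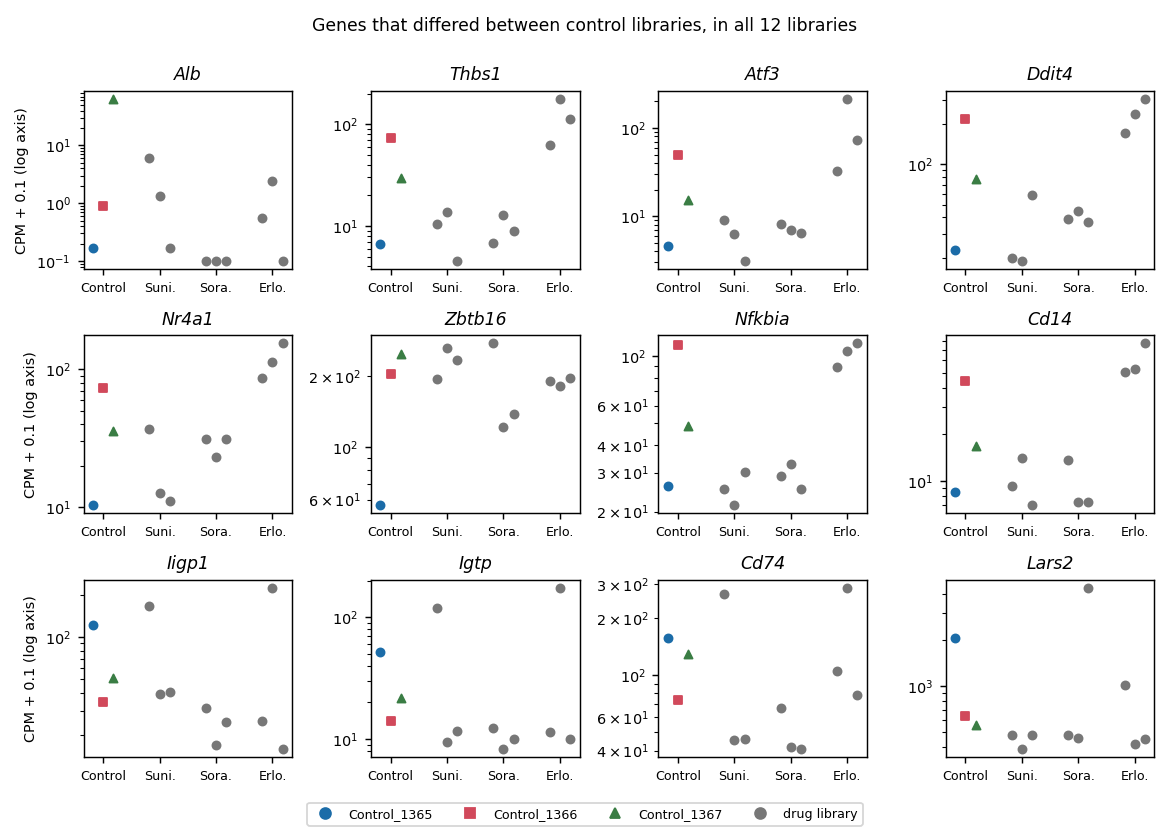
CPM plus 0.1 (log axis) in all 12 libraries of 12 genes that differed between control libraries, with coloured symbols for the 3 control libraries and grey points for the drug libraries. Alb is high in Control_1367, Thbs1, Atf3, Ddit4, Nr4a1, Nfkbia and Cd14 are high in Control_1366 and in erlotinib, and Iigp1, Igtp, Cd74 and Lars2 are highest of the control libraries in Control_1365.

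Most of the leading genes were shared with the drug groups. Of the 30 leading genes of control, 27 were among the 30 of sunitinib, 27 of sorafenib and 28 of erlotinib. An edgeR quasi-likelihood test of any difference among the 4 groups called 732 of 13440 genes at an adjusted p under 0.05 (5.45%). That count was 61 without Erlotinib_1376 and 1644 with DESeq2. It called 0 of the 30 (edgeR adjusted p from 0.180 for Mir684-1 upward) and 4 of the 59 family leaders, Kcnj2, Cacna1c, Ryr2 and Cav1, a share near that of all genes. Kcnj2 had 94.6, 84.2 and 86.5 CPM in control, from 106 to 120 CPM in sunitinib, 80.0 to 85.7 CPM in sorafenib and 60.0 to 66.1 CPM in erlotinib (edgeR adjusted p = 0.000934). Its control values lay between those of sunitinib and erlotinib without overlap. Ryr2 had 2273, 2041 and 2185 CPM in control and from 2611 to 2856 CPM in sunitinib (edgeR adjusted p = 0.0391). Of the 15 most variable genes with a mean of at least 20 CPM, 2 were called, Gadd45b (edgeR adjusted p = 0.0369) and Cd14 (0.0465). Without Erlotinib_1376 the edgeR adjusted p was 0.133 for Gadd45b and 0.164 for Cd14, and over all alternatives, DESeq2 included, the adjusted p ran from 1.00e-05 to 0.133 and from 8.77e-05 to 0.164. Without single sunitinib, sorafenib or erlotinib libraries neither gene was called, whichever of the 9 was left out.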

How the data were processed

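Per the labels' protocols, heart RNA was purified by RNeasy, selected for polyA and sequenced as stranded KAPA libraries. The submitters' processing notes name RSEM, Picard 1.88, SAMtools 1.2 and mouse build mm9. Which aligner and gene models were used is not given in the sources used here. Deposited values comprise, per gene and library, RSEM expected counts, TPM, FPKM (not used further here) and a scaled signal (the expected count times 1 factor per library), with lengths, per the file headers; the effective length is 75 bases below the length.

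TPM were used as deposited. Expected counts were rounded and scaled by TMM over all 12 libraries (edgeR 4.0.16, R 4.3.3). Spread is the SD of log2(CPM + 0.5) for genes at a mean of 1 CPM or more. The chi-square test took genes with a summed count of at least 30, and edgeR those kept by filterByExpr. P-values were adjusted by Benjamini-Hochberg over all genes or families tested. Scripts were tested on simulated data. Totals cover listed genes only, and limits from 0 counts cover counting error only. No batch is labelled. P-values of the edgeR, DESeq2 and permutation tests measure the spread between these libraries, which may be technical. Those of the chi-square test are against counting error only.

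Named genes were the 30 of highest TPM, the leading members of families and lists, the 30 most variable (15 at 20 CPM or more) and the 10 most stable at 100 CPM or more, without predicted models; others, including guanylate-binding protein, Fos, Dbp, Arntl, Eln and Postn genes, were chosen after their values were seen. Some items are not reported here. The members and lists were chosen with earlier results of these data known. Promoter sequences are from RefSeq, GRCm38.p6, and no coordinates were moved between builds.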

Additional observations from a re-analysis of the deposited data

How the results depend on the processing

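Counts in place of TPM gave 451 genes for 50% of the total, 20.1% in the 30 leading genes and 18 shared leading genes, and leaving out the 20 most abundant genes gave 384 and 12.3%; leaving out genes with an effective length under 100 bases, an alternative chosen after seeing the data, changed these by less. Genes beyond counting error numbered 3268 to 3484 when 1 control library was left out, which leaves fewer samples. Genes at 2-fold numbered 256 with a pseudocount of 2, 269 at a mean of at least 5 CPM and 191 to 342 without 1 control library. Of the 30 most variable genes 10 were shared with the ranking by TPM, 11 with that at 5 CPM or more, and 11 to 21 without 1 control library, 11 being the value without Control_1367. Any difference among the 4 groups was called for 1644 genes by the DESeq2 likelihood ratio test, and for 61 to 1004 genes when 1 library was left out: leaving out Sunitinib_1369 or Sunitinib_1370 gave 203 and 274, leaving out Sorafenib_1373 gave 269, and leaving out Erlotinib_1374, Erlotinib_1375 or Erlotinib_1376 gave 372, 126 and 61. The cause of these changes was not tested. The permutation tests of family shares called 0 families under every alternative run, with 0 to 7 at an unadjusted p under 0.05; too few splits exist for a single family to pass. No result reversed. No paired analysis was possible because the groups share no replicate numbers.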
